A study of Drosophila melanogaster with 6 samples.

Results

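UDP-glycosyltransferases are enzymes of the endoplasmic reticulum that join a sugar, taken from a UDP-sugar, to small lipophilic molecules such as plant toxins, hormones and pigments, which makes them more soluble and easier to export. In insects the sugar is usually glucose, and the reaction follows the oxidation carried out by cytochrome P450 enzymes. Nrf2, called CncC in the fly, is a transcription factor that binds DNA with small Maf proteins, is held back by Keap1 and raises many detoxification genes, so that the family is a usual place to look for its targets. The family was taken here as every gene whose symbol begins with Ugt and a number. This gave 35 genes in 13 numbered subfamilies, and all 35 were among the 13955 genes counted in each library.

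Wing discs, which become the adult wing and the body wall around it, were used for RNA sequencing, with 3 libraries for Nrf2 overexpression and 3 for control. The Methods give the Nrf2 overexpression larvae a tubulin Gal4 driver, UAS-CD8-GFP, tub-Gal80ts and UAS-nrf2, and the control larvae the same elements without UAS-nrf2, with hs-FLP in both. Gal80ts is a temperature-sensitive brake on Gal4, and larvae of both genotypes were kept at 28 °C and taken as wandering females of the last larval instar. The labels instead call the controls wild type, with yw in their titles, so that if they lacked the driver and Gal80ts, the effects of strain, driver and Nrf2 cannot be told apart. The tubulin promoter is active in all cells, and whole discs were used, so that fewer cells of a type and less RNA per cell cannot be told apart either.

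The 6 libraries held between 16464410 and 16682764 counts. cnc, the fly gene for Nrf2, had 84044, 147169 and 172120 counts in Nrf2 overexpression and 1983, 1777 and 1848 counts in control, which matches the labels. The Nrf2 overexpression library with 84044 cnc counts is replicate 1, and leaving it out changed none of the calls given here for the Ugt genes. Of 9 wing disc epithelium markers found, all could be tested, with summed levels of 1317 to 1604 CPM (counts scaled to library size, in the usual unit) in Nrf2 overexpression and 1193 to 1407 CPM in control. Of these, 3 were called higher and 3 lower (edgeR, adjusted p-value under 0.05, a call made for 62.5% of all genes tested), from rn at 0.72 to bs at -0.52 on the log2 scale. Some genes listed as markers of other cells of the disc moved with genotype too. Of 4 genes listed for the trachea 3 were higher (verm 0.57, serp 0.34 and knk 0.28). The 4 summed to 1437 to 1709 CPM in Nrf2 overexpression and 1057 to 1225 CPM in control. The remaining one, trh, overlapped between genotypes and did not pass the test (0.23, adjusted p = 0.0648). Whether the reads of verm, serp and knk came from trachea alone was not tested. Of 5 markers of adult muscle precursors 3 were lower (Him -0.76, twi -0.64 and zfh1 -0.39), with sums of 191 to 221 CPM in Nrf2 overexpression and 231 to 250 CPM in control. Mef2, the most abundant of the 5, and htl did not pass the test (0.15, adjusted p = 0.113, and -0.10, adjusted p = 0.472). Mef2 was higher in every Nrf2 overexpression library than in every control library, so that the list did not move as a whole. The differences of the called markers are of the size of those of Ugt36A1 and Ugt317A1, and the part of such cells in the changes of these 2 genes was not tested. Fat body markers varied between libraries of a genotype, with summed levels of 12.5 to 91.1 CPM in Nrf2 overexpression and 14.5 to 555 CPM in control, the highest being control replicate 2. All 7 could be tested, with a median log2 fold change of -2.02. Of these, 1 was called lower (14.3%), Lsp1gamma (-2.68, adjusted p = 0.0399), which overlapped between genotypes, and 6 did not pass. Salivary gland markers reached 17.4 CPM in Nrf2 overexpression, in replicate 1, and 2.25 CPM in control. No marker of the midgut exceeded 16 counts in any library.

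Most of the family had few counted reads or none in these discs. No read was counted on 9 of the 35 genes in any library: Ugt36F1, Ugt37E1, Ugt305A1, Ugt35E1, Ugt303A1, Ugt49B2, Ugt303B1, Ugt303B2 and Ugt303B3. At least 1 read was counted on 24 genes across the Nrf2 overexpression libraries and on 21 across the control libraries. A mean of at least 1 CPM was reached by 8 genes in Nrf2 overexpression and by 8 in control, and a mean of at least 5 CPM by 7 and 6 genes. These are limits on detection at this depth, as 0 counts in a library allow up to about 3 counts, or from 0.174 to 0.189 CPM. Reads shared by paralogs could not be separated, and their part in the low counts was not tested. Between 17 and 22 of the genes had a count in a given Nrf2 overexpression library, against 16 to 20 in a control library.

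**Figure D1:**
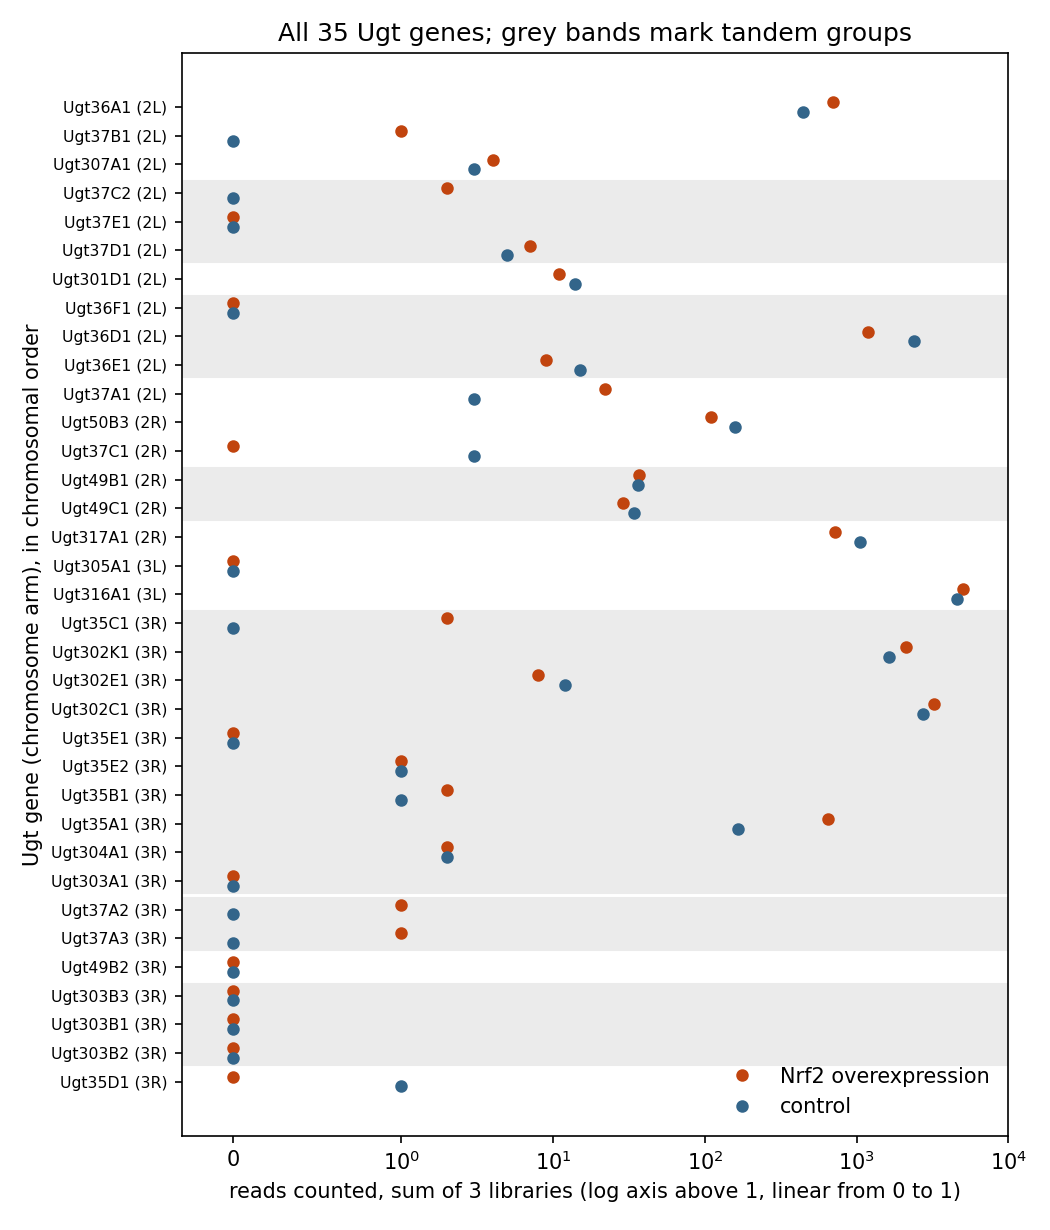
Reads counted on each of the 35 Ugt genes, summed over the 3 Nrf2 overexpression libraries and over the 3 control libraries, on a horizontal axis that is logarithmic above 1 and linear from 0 to 1. Genes are in chromosomal order with their chromosome arm, and grey bands mark runs of neighbours within 50 kb. Highly expressed genes stand beside genes with none in the same run, and 9 genes are at 0 in both genotypes.

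Genes with many reads and genes with few or none stood side by side in the genome. By the reference annotation (BDGP6.54), 23 of the genes stood in 6 runs of neighbours less than 50 kb apart and 12 stood alone. The longest run held 10 genes within 51.3 kb of chromosome 3R, from Ugt35C1 to Ugt303A1. In this run Ugt302K1, Ugt302C1 and Ugt35A1 had enough reads to be tested, whereas the other 7 had at most 5 counts in any library. Ugt302E1, which lies between Ugt302K1 and Ugt302C1, had 4, 3 and 1 counts in Nrf2 overexpression and 5, 2 and 5 counts in control. The members of the run with few reads or none include genes known from other work in the fly. Ugt35C1, formerly Ugt86Dd and linked to nicotine resistance, had 2 counts over the 3 Nrf2 overexpression libraries and 0 over the 3 control libraries. Ugt35B1, known from the antenna, had 2 counts over the Nrf2 overexpression libraries and 1 over the control libraries. On chromosome 2L, Ugt36D1 was expressed between Ugt36F1, with no reads, and Ugt36E1, known from olfactory neurons, which had 3, 5 and 1 counts in Nrf2 overexpression and 3, 5 and 7 counts in control.

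The subfamilies differed in the same way. None of the 8 genes of subfamily 37 and none of the 4 genes of subfamily 303 had enough reads to be tested, whereas 2 of the 3 genes of subfamily 302 and 2 of the 4 genes of subfamily 36 did. Subfamily 37 had 34 counts in all in Nrf2 overexpression and 11 in control. Of these, 22 and 3 were on 1 gene, Ugt37A1, so that the sums do not describe the subfamily as a whole. Subfamily 303 had none in either genotype.

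A test was possible for 10 of the 35 genes, those with about 0.601 CPM or more in at least 3 libraries. All 10 had 10 or more counts in each of the 3 control libraries, so that none passed this filter through Nrf2 overexpression alone. Counts were compared with edgeR's quasi-likelihood test and Benjamini-Hochberg adjustment over all 8361 genes that passed the filter, and a gene was called at an adjusted p-value under 0.05. Ugt35A1 and Ugt36A1 were called higher in Nrf2 overexpression, Ugt36D1 and Ugt317A1 were called lower, and 6 genes did not pass the test. The 4 called genes were 40% of the Ugt genes tested. Over all genes tested, 62.5% were called, with 30.9% higher and 31.6% lower. The median log2 fold change was 0.03 over the 10 Ugt genes and -0.01 over all genes tested, and the median absolute log2 fold change was 0.45 over the Ugt genes and 0.43 over all genes.

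**Figure D2:**
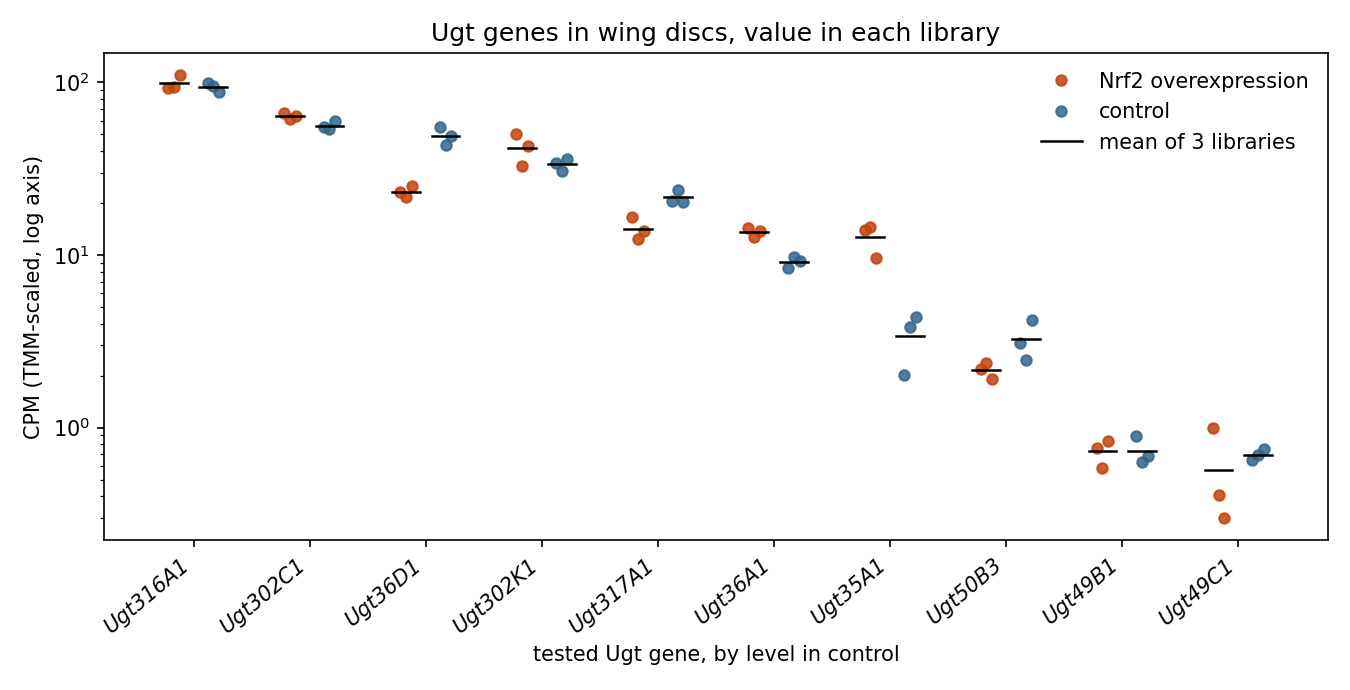
Level of the 10 tested Ugt genes in each library, in TMM-scaled CPM on a logarithmic axis, with Nrf2 overexpression left of control for each gene and a line at the mean of 3 libraries. Ugt35A1 and Ugt36A1 lie above control in every Nrf2 overexpression library, Ugt36D1 and Ugt317A1 lie below it in every library, and Ugt316A1, the most abundant member, overlaps between genotypes.

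Ugt35A1 had the largest change of the 10 tested genes. This gene (FBgn0026315, chromosome 3R from 11170817 to 11172664, minus strand) has been described as broadly expressed in the fly, unlike its neighbour Ugt35B1. It had 238, 252 and 160 counts in Nrf2 overexpression and 34, 61 and 70 counts in control. Every Nrf2 overexpression library lay well above every control library. Ugt35A1 averaged 12.7 ± 2.75 CPM in Nrf2 overexpression and 3.41 ± 1.24 CPM in control (SD, n = 3 each), a difference of 1.90 on the log2 scale (standard error 0.27, 95% interval 1.30 to 2.51, adjusted p = 0.000227). Among the Nrf2 overexpression libraries, the one with the most cnc counts had the fewest reads of Ugt35A1, and a relation to the level of cnc was not tested. The genes on either side, Ugt35B1 and Ugt304A1, had at most 1 count in any library. Leaving out each library in turn kept the log2 fold change of Ugt35A1 between 1.62 and 2.12. Its adjusted p-value was at most 0.00188 over all the alternative fits.

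Ugt36A1 rose by less. It is also known as Dorothy, and its regulatory region is used in the fly to mark cells of the lymph gland and the pericardial cells along the heart. Ugt36A1 (FBgn0015663, chromosome 2L from 3619097 to 3621573, plus strand) had 244, 220 and 230 counts in Nrf2 overexpression and 141, 154 and 148 counts in control. The replicates of each genotype lay close together and the genotypes did not overlap. The level was 13.6 ± 0.817 CPM in Nrf2 overexpression and 9.1 ± 0.69 CPM in control (SD, n = 3 each), a difference of 0.58 on the log2 scale (standard error 0.12, 95% interval 0.31 to 0.85, adjusted p = 0.00206). Its exons overlap those of CG15418 on the opposite strand by 400 bases. CG15418 was also called higher, with 19, 23 and 20 counts in Nrf2 overexpression and 9, 8 and 9 counts in control, and as the use of strand in counting is not given in the sources used here, reads from the shared stretch cannot be assigned. The 6 haemocyte markers summed to 14.6 to 19.8 CPM in Nrf2 overexpression and 11.4 to 17.1 CPM in control, and nearly all of this was Pxn, which was called higher (log2 fold change 0.54, adjusted p = 0.0127). The other 5 summed to 0.838 to 2.9 CPM in Nrf2 overexpression and 2.69 to 4.62 CPM in control. Of these, Hml could be tested and did not pass (-0.69, adjusted p = 0.174), and eater, He and srp, with at most 18 counts in any library, were lower in every Nrf2 overexpression library than in every control library. NimC1 overlapped between genotypes and had the higher mean in Nrf2 overexpression, with 5, 4 and 0 counts there and 1, 0 and 1 counts in control. The part of these cells in the rise of Ugt36A1 was not tested.

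Ugt36D1 fell to about 0.5 of its control level (95% interval 0.4 to 0.563). It is a member of the same numbered subfamily as Ugt36A1, which moved the other way. Ugt36D1 (FBgn0032713, chromosome 2L from 18823548 to 18826716, plus strand) had 396, 372 and 418 counts in Nrf2 overexpression and 932, 690 and 779 counts in control. No Nrf2 overexpression library came near the lowest control library. It averaged 23.3 ± 1.73 CPM in Nrf2 overexpression and 49.1 ± 5.87 CPM in control (SD, n = 3 each), a difference of -1.08 on the log2 scale (standard error 0.11, 95% interval -1.32 to -0.83, adjusted p = 3.69e-05), which is 0.474 of the control level. This was the smallest adjusted p-value of the family. Across the alternative fits the log2 fold change stayed between -1.16 and -0.99.

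Ugt317A1, formerly Ugt58Fa, was also lower. Ugt317A1 (FBgn0040091, chromosome 2R from 22641786 to 22643917, minus strand) had 281, 212 and 231 counts in Nrf2 overexpression and 348, 376 and 325 counts in control. The genotypes did not overlap, although the highest Nrf2 overexpression library was not far under the lowest control library. The level was 14.2 ± 2.16 CPM in Nrf2 overexpression and 21.5 ± 1.87 CPM in control (SD, n = 3 each), a difference of -0.60 on the log2 scale (standard error 0.13, 95% interval -0.89 to -0.31, adjusted p = 0.00279). Its neighbour CG2852 was lower too, with a change of -1.10 on the log2 scale (standard error 0.11, adjusted p = 3.31e-05), whereas its other neighbour, the ribosomal protein gene RpS24, did not pass the test (log2 fold change -0.27, standard error 0.13, adjusted p = 0.1).

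**Figure D3:**
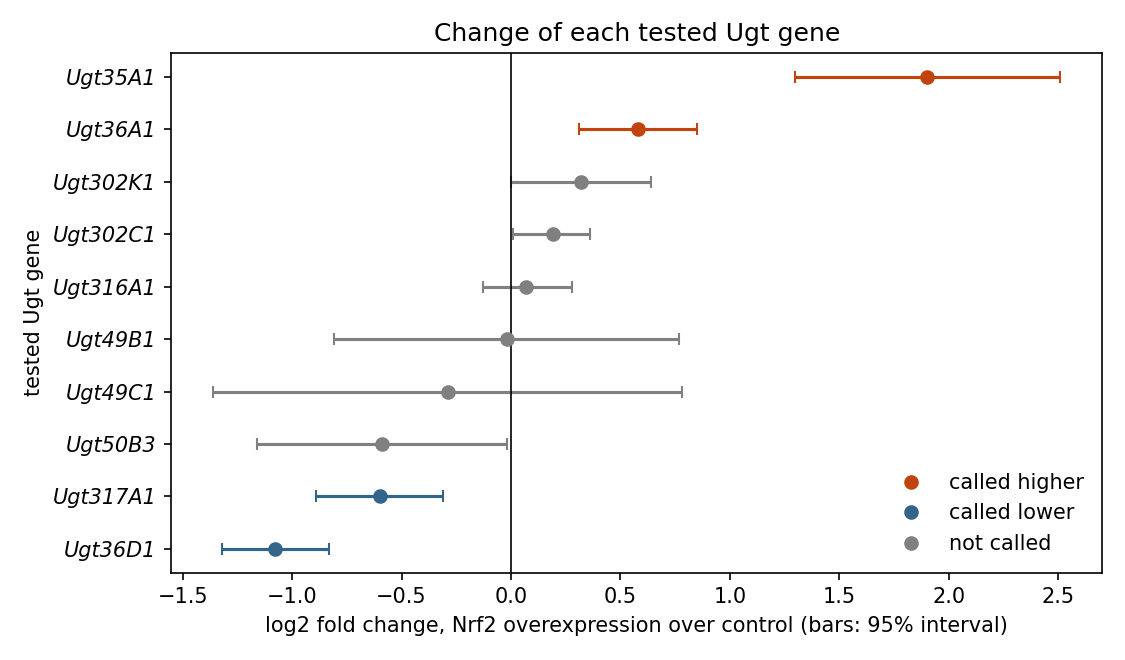
Log2 fold change of each tested Ugt gene, Nrf2 overexpression over control, from edgeR's quasi-likelihood fit, with 95% intervals as bars. Ugt35A1 (1.90) and Ugt36A1 (0.58) lie right of 0 and Ugt36D1 (-1.08) and Ugt317A1 (-0.60) lie left of it, and the intervals of Ugt49B1 and Ugt49C1 are the widest.

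Of the 3 most abundant members in control, Ugt36D1 was lower, whereas Ugt316A1 and Ugt302C1 did not pass the test. Ugt316A1 (FBgn0036842, chromosome 3L from 19059400 to 19062816, minus strand) had 1574, 1630 and 1830 counts in Nrf2 overexpression and 1676, 1505 and 1403 counts in control. The genotypes overlapped. The log2 fold change was 0.07 with a 95% interval from -0.13 to 0.28 (adjusted p = 0.498), so that a change beyond 1.21-fold lies outside the interval.

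Ugt302C1 and Ugt302K1, the expressed members of subfamily 302, stand on opposite strands on either side of Ugt302E1. Ugt302C1 had 1124, 1062 and 1063 counts in Nrf2 overexpression and 929, 846 and 959 counts in control. Scaled to CPM, the genotypes did not overlap, and the change was 0.19 on the log2 scale (standard error 0.08, 95% interval 0.01 to 0.36, adjusted p = 0.0597). Ugt302K1 had 848, 567 and 713 counts in Nrf2 overexpression and 573, 485 and 572 counts in control. Its Nrf2 overexpression libraries were the more spread, and the lowest of them, replicate 2, fell among the control libraries in CPM. The log2 fold change of Ugt302K1 was 0.32 (standard error 0.14, adjusted p = 0.0717), and without Nrf2 overexpression replicate 2 it was 0.48 with an adjusted p-value of 0.0101. Without Nrf2 overexpression replicate 1 it was 0.18 (adjusted p = 0.236), so that the value rests on which libraries are used. Ugt302C1 passed the test with DESeq2's size factors (adjusted p = 0.0424), with total counts only (0.0233) and with a trend of the libraries with exon length removed (0.017), within a range of 0.017 to 0.267 over its alternatives.

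Ugt50B3 is the fly member of a subfamily that most insects keep as a single gene. It spans more of the genome than any other member, from 5496674 to 5549543 on chromosome 2R, with TpnC4 inside it on the opposite strand and no shared exon. Ugt50B3 had 37, 41 and 32 counts in Nrf2 overexpression and 52, 39 and 67 counts in control. In CPM the genotypes did not overlap, by a small margin, and the log2 fold change was -0.59 (standard error 0.26, 95% interval -1.16 to -0.02, adjusted p = 0.0688). This gene was called lower without control replicate 2 (-0.75, adjusted p = 0.0416), with upper-quartile scaling (-0.66, 0.0498) and with the exon length trend removed (-0.71, 0.0337). Without control replicate 3 its log2 fold change was -0.36 (adjusted p = 0.32), the highest adjusted p-value of its alternatives.

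Ugt49B1 and Ugt49C1, which lie side by side on chromosome 2R, were at the edge of the filter. Ugt49B1 had 13, 10 and 14 counts in Nrf2 overexpression and 15, 10 and 11 counts in control. Its exons share 90 bases with CG44245 on the opposite strand. Ugt49C1 had 17, 7 and 5 counts in Nrf2 overexpression and 11, 11 and 12 counts in control. The genotypes overlapped for both, and with so few reads the 95% intervals of the log2 fold change ran from -0.81 to 0.77 for Ugt49B1 and from -1.36 to 0.78 for Ugt49C1. In all, 6 of the 10 tested genes did not overlap between genotypes in CPM, against 68.4% of all genes tested.

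The 25 genes below the filter held between 15 and 30 counts together in a Nrf2 overexpression library and between 12 and 27 in a control library. Just under the filter, Ugt37A1 and Ugt301D1 each reached 8 counts in a library. Ugt37A1 (FBgn0026756, chromosome 2L from 20372409 to 20374104) had 8, 6 and 8 counts in Nrf2 overexpression and 1, 1 and 1 counts in control. Every Nrf2 overexpression library was above every control library, and the ratio of the summed counts, after scaling by the libraries' effective sizes, was 7.02 with an exact 95% interval of 2.11 to 36.6, which covers counting error only. Without the filter, edgeR's test gave Ugt37A1 a change of 2.68 on the log2 scale (standard error 0.67, adjusted p = 0.00546), and no other Ugt gene under the filter was called. Ugt301D1 had 5, 6 and 0 counts in Nrf2 overexpression and 4, 2 and 8 counts in control, without separation of the genotypes.

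The summed level of the family was alike in the genotypes, although its called members moved in both directions. All 35 genes summed to 273 ± 15.7 CPM in Nrf2 overexpression and 273 ± 8.16 CPM in control (SD, n = 3 each). Mean levels differed by -25.8 CPM for Ugt36D1 and -7.32 CPM for Ugt317A1, Nrf2 overexpression minus control. On the other side stood Ugt35A1 with 9.32 CPM, Ugt302K1 with 8.41 CPM, Ugt302C1 with 7.7 CPM, Ugt316A1 with 4.97 CPM and Ugt36A1 with 4.53 CPM, of which only Ugt35A1 and Ugt36A1 passed the test. The family took from 0.0265% to 0.0288% of all counts in the Nrf2 overexpression libraries and from 0.0251% to 0.0285% in the control libraries. Counting error alone gave these shares exact (Clopper-Pearson) 95% bounds of 0.0257% and 0.0273% around the lowest in Nrf2 overexpression, and of 0.0244% and 0.0259% around the lowest in control. Ugt316A1, Ugt302C1 and Ugt36D1, the 3 most abundant in control, held from 64.5% to 70.3% of the family's counts in Nrf2 overexpression and from 71.8% to 74.7% in control.

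Levels of different genes were set beside each other per kilobase of exon. In Nrf2 overexpression the order began with Ugt302C1 at 32 ± 1.16 and Ugt316A1 at 31.4 ± 2.94 CPM per kb, which overlapped, followed by Ugt302K1 at 16.4 ± 3.35 and Ugt36D1 at 10.2 ± 0.762 CPM per kb (SD, n = 3 each). In control Ugt316A1 at 29.8 ± 1.85 and Ugt302C1 at 28.1 ± 1.73 CPM per kb overlapped at the top, and Ugt36D1 came next at 21.6 ± 2.58, above Ugt302K1 at 13.1 ± 1.03 CPM per kb (SD, n = 3 each). Ugt36D1 thus changed places with Ugt302K1, and neither overlapped the other in either genotype. Ugt35A1 reached 7.15 ± 1.54 CPM per kb in Nrf2 overexpression, overlapping both Ugt317A1 at 7.63 ± 1.16 and Ugt36A1 at 5.92 ± 0.355. In control Ugt35A1 stood at 1.92 ± 0.696 CPM per kb, below all libraries of Ugt36A1 at 3.95 ± 0.299 and Ugt317A1 at 11.6 ± 1.0, and overlapping Ugt50B3 at 0.978 ± 0.264.

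Genes that make the sugar donor, and genes that use it directly or through a product, were called in both directions. Their shares were 44.4% and 62.5% of those tested, against 62.5% of all genes. Of 11 genes for the supply of UDP-sugars, 9 could be tested, and 2 were called higher and 2 lower, with a median log2 fold change of 0.10. Pgm1, which interconverts glucose phosphates, had 1587, 1210 and 1139 counts in Nrf2 overexpression and 660, 703 and 681 counts in control, a difference of 0.88 on the log2 scale (standard error 0.12, adjusted p = 0.000207). Uxs, which makes UDP-xylose, was higher (log2 fold change 0.41, adjusted p = 0.00629), and sgl, the UDP-glucose dehydrogenase, was lower (-0.35, adjusted p = 0.00801). UGP, which makes UDP-glucose itself, was named after its values were seen. It had 1354, 1235 and 1386 counts in Nrf2 overexpression and 1609, 1603 and 1610 counts in control, a log2 fold change of -0.34 (adjusted p = 0.00469). The summed level of the 11 genes was 471 to 482 CPM in Nrf2 overexpression and 458 to 463 CPM in control.

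The next list held 9 other genes that use UDP-glucose directly or, as for gny and xit, through a donor made from it. Of these, 8 could be tested, with 2 called higher and 3 lower. gny, a glucosyltransferase of the N-glycan precursor, was higher (log2 fold change 0.86, adjusted p = 0.000132). wol, which acts in the same pathway, was lower (-0.42, adjusted p = 0.00134), as was Uggt, which re-glucosylates misfolded glycoproteins (-0.41, adjusted p = 0.0172). Among 9 sulfotransferases and efflux transporters, which serve the same clearance of small molecules, 6 could be tested, with 2 higher and 2 lower. This is 66.7% called, near the 62.5% of all genes tested. The sulfotransferase St2 had 219, 83 and 57 counts in Nrf2 overexpression and 815, 626 and 688 counts in control, a difference of -2.63 on the log2 scale (standard error 0.37, adjusted p = 0.000218). St3 was lower as well (-1.56, adjusted p = 0.00218), while Mdr49, a P-glycoprotein, was higher (0.66, adjusted p = 0.000321).

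**Figure D4:**
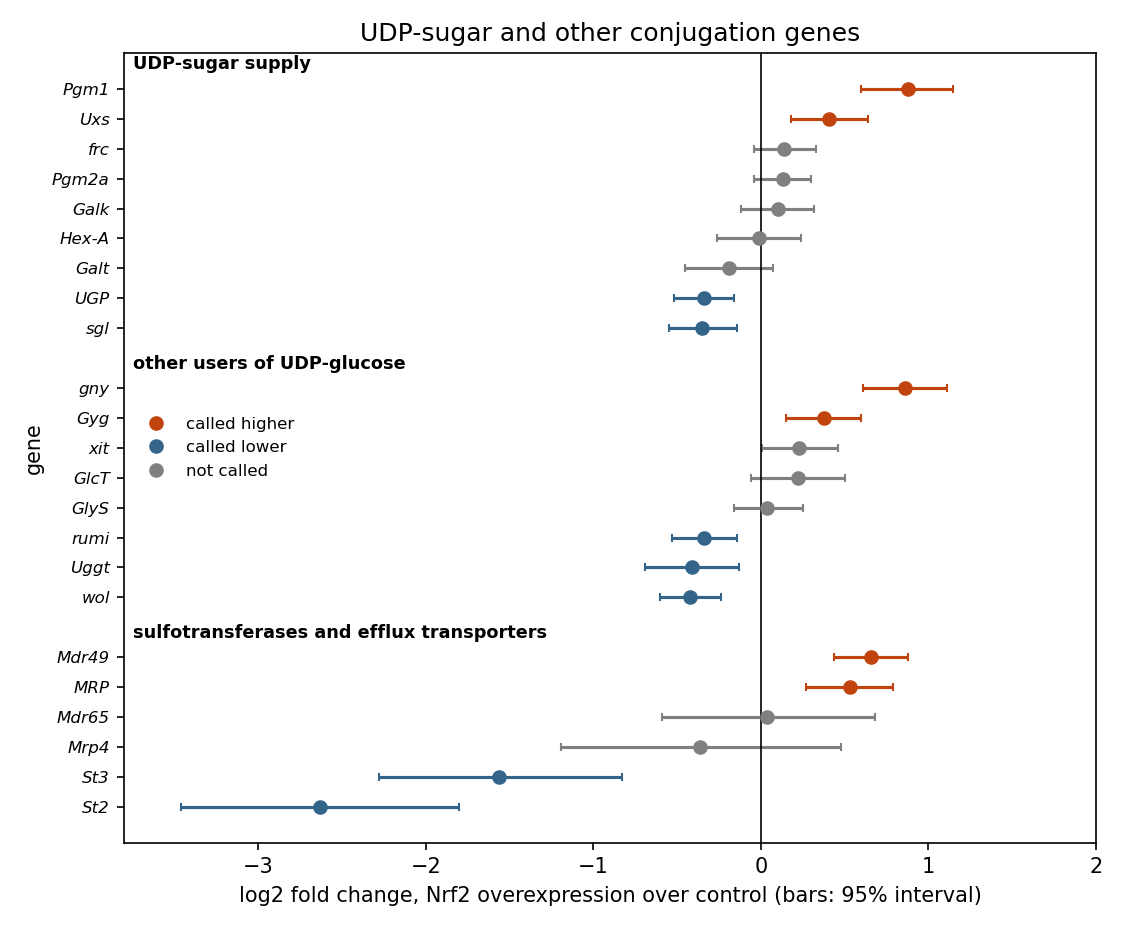
Log2 fold change, Nrf2 overexpression over control, of the tested genes for UDP-sugar supply, of other users of UDP-glucose (directly or through a donor made from it), and of sulfotransferases and efflux transporters, with 95% intervals as bars. Each list has genes called in both directions, and St2 (-2.63) and St3 (-1.56) have the largest decreases.

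Of the regulators, 4 of 7 were called higher, cnc among them, and 2 lower (85.7% called, against 62.5% of all genes tested). As cnc is the overexpressed gene, its call was given by the design, and it is part of the 85.7%. Beside cnc, Keap1 rose by 1.73 on the log2 scale (standard error 0.13, adjusted p = 9.7e-06), and Xrp1, a transcription factor raised in loser cells, had 1.39 (standard error 0.14, adjusted p = 3.05e-05). Genes of the response to ecdysone, the steroid hormone that times the end of larval life, moved with genotype. Of the 15 tested, 9 were called lower and 3 higher (80% called, against 62.5% of all genes tested). The summed level was 893 to 1194 CPM in Nrf2 overexpression and 2866 to 4301 CPM in control. ImpE2 made up most of this difference, with 103 to 242 CPM in Nrf2 overexpression and 1873 to 3076 CPM in control, and the other 14 genes summed to 790 to 952 CPM in Nrf2 overexpression and 992 to 1226 CPM in control. EcR, ftz-f1 and ImpL1 were the 3 called higher, by 1.42, 2.77 and 1.87 on the log2 scale. Hr3, Blimp-1 and Eip78C had the largest changes, with log2 fold changes of -7.14, -6.98 and -4.72. The part of a difference in hormone response or stage in the changes of the Ugt genes was not tested.

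Other detoxification families are given beside the Ugt genes, of which 28.6% could be tested, against 59.9% of all genes. Of 83 cytochrome P450 genes, 36 could be tested, with 23 called higher and 6 lower (80.6% called, against 62.5% of all genes) and a median log2 fold change of 0.82. Of 35 glutathione S-transferase genes, 24 could be tested, with 2 called higher and 12 lower (58.3% called) and a median log2 fold change of -0.30. A mean of at least 1 CPM in control was reached by 28 P450 genes and 22 glutathione S-transferase genes. Whether some genes of these families passed the filter through Nrf2 overexpression alone was not tested. The difference between the families was not tested, as their genes are not independent samples.

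**Figure D5:**
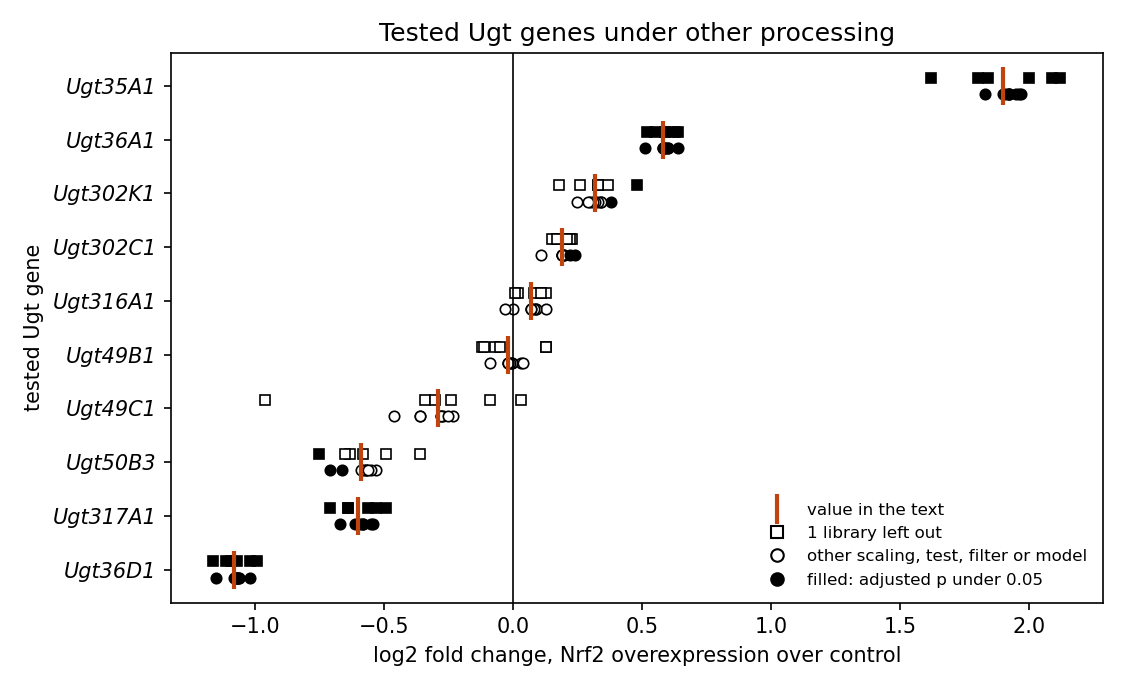
Log2 fold change of the 10 tested Ugt genes, Nrf2 overexpression over control, under other scalings, tests, filters and models (circles) and with 1 library left out (squares), beside the value given in the text (vertical line). Filled symbols had an adjusted p-value under 0.05, as did every symbol of Ugt35A1, Ugt36A1, Ugt317A1 and Ugt36D1.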

How the data were processed

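The authors deposited whole-number counts of reads per gene for each library, without normalization, under FlyBase identifiers. The submitters' processing notes name FastQC 0.11.5, Bowtie and the build BDGP6. The counting tool and its use of strand are not given in the sources used here. Libraries were made from 500 ng of total RNA. The series table repeats these values and was not used. Symbols came from a reference table for 13660 of 13955 identifiers, and coordinates and exon lengths from Ensembl's annotation of BDGP6.54, by identifier. Reads shared by paralogs could not be separated, and listed genes without a match were not analysed here. A gene of the UDP-sugar supply list is not reported here and was left out of its counts.

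Counts were scaled by TMM and tested with edgeR 4.0.16 (R 4.3.3, filterByExpr, quasi-likelihood test, Benjamini-Hochberg adjustment over 8361 genes), with standard errors from the F statistic. CPM are TMM-scaled. Alternatives were other scalings, limma-voom (limma 3.58.1), DESeq2 1.42.0, filters of none or of 10 counts throughout, a block for replicate number, each library left out, stricter calls and a loess (span 0.5) removal of a trend with exon length. The stricter calls used the values of the main fit and so could not move them. Procedures were tested on simulated data. Libraries of a genotype differed by more than sampling noise, and nothing says whether they came from separate animals, so p-values measure the spread between these libraries. The smallest p-value of an exact permutation test of 3 libraries against 3 (two-sided) is 0.1. Values in every library were given for each called Ugt gene and the 3 most abundant in control, with the genes near the filter, and up to 3 called genes with the largest changes were named from each list. The members and lists were chosen with earlier results of these data known.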

Additional observations from a re-analysis of the deposited data

How the results depend on the processing

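The calls of Ugt35A1, Ugt36A1, Ugt36D1 and Ugt317A1 held under every change of scaling, tool, filter, block or library tried, with adjusted p-values of at most 0.0154. They also held with a limit of 0.01 on the adjusted p-value over all libraries. With at least 1.5-fold change required as well, Ugt36A1 (log2 fold change 0.58) fell just short, which left 1 Ugt gene higher, and 1418 genes in all were higher and 1444 lower, against 2585 and 2644. With total counts only, 4 Ugt genes were higher, as Ugt302C1 and Ugt302K1 passed. With fits that left out a library, 2 to 3 Ugt genes were higher and 2 to 3 lower, and the median log2 fold change of the tested Ugt genes ran from -0.02 to 0.12. Genes near no change switched sign: Ugt316A1 to -0.001 with upper-quartile scaling and -0.03 with the exon length trend removed, and Ugt49B1 to 0.03 with total counts only and 0.04 with that trend removed. Leaving out a library gave Ugt49B1 values from -0.12 to 0.13, the positive ones without control replicate 1 or Nrf2 overexpression replicate 2, and Ugt49C1 values from -0.96 to 0.03, the positive one without Nrf2 overexpression replicate 3. For these, the cause was not tested. At least 1 count in any control library, in place of a mean of 1 CPM, would make 21 genes expressed in control, by construction. The replicate numbers gave no sign of pairing, as same-numbered deviations correlated at -0.265, 0.068 and 0.106 across genes, and differently numbered ones at -0.313 to 0.238. Deviations were taken from the mean of each genotype, which ties these values together, so that they cannot settle whether libraries were paired. With the replicate block, 2 Ugt genes were higher and 2 lower, and 2287 genes in all were higher and 2320 lower. The 25 genes below the filter had at most 8 counts in any library, which limits what their counts can show.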
